A study of Mus musculus with 56 samples.

Results

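Glutathione transferases join the tripeptide glutathione to electrophilic compounds, which makes drugs, carcinogens and products of lipid peroxidation soluble enough to be pumped out of the cell. The soluble enzymes are grouped in classes named alpha, mu, pi, theta and omega, and a separate family sits in membranes. The pi-class gene Gstp1 is strongly expressed in many cultured and tumour cells, and its product also binds the stress kinase JNK. The genes described here are 10 members of this group among 15063 named genes of the array: Gstp1, the mu-class genes Gstm1, Gstm2 and Gstm5, the alpha-class gene Gsta4, the omega-class gene Gsto1, the theta-class genes Gstt1 and Gstt2, and the membrane genes Mgst1 and Mgst3. They were picked by gene symbol with their ratios between both cell lines already known, so those ratios are given as a description and carry no test. Each member is measured by 1 probe. Mouse Gstp1 has a close copy, Gstp2, which no named probe of this array measures, and the mu-class genes also resemble each other. Cross-hybridization between these copies was not tested.

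The 56 arrays are two-color hybridizations of mouse cDNA or cRNA. OV is a cell line from mouse ovarian epithelium and 3T3 is a mouse fibroblast line, and each is represented by a single RNA pool. In 7 comparisons of 4 arrays each, OV was hybridized against 3T3 after GA or SMART amplification of 10 pg of total RNA, after IVTIII, GA, SMART or SM37 amplification of 10 ng, or as unamplified cDNA from 100 μg. RNA input here means the amount that entered reverse transcription. By the study's methods, products from 100 pg to 10 ng were diluted between rounds, in the PCR methods to single-cell equivalents. IVTIII is linear amplification by T7 transcription in 3 rounds. GA, SMART and SM37 are PCR methods: global amplification of tailed cDNA, amplification after template switching, and a modified form of the second. A further 21 arrays set replicas of OV targets against each other, 4 arrays set against each other replicas from a pool of neocortex progenitors of E11.5 mouse embryos that had been amplified by GA or SMART, and 3 arrays held 1 OV target in both dyes. All values are log2 ratios. Read as Cy5 over Cy3, they were turned to OV over 3T3, so that a negative value means less of the transcript per unit of OV RNA. Whether fewer cells express a gene or each cell holds less RNA cannot be told apart in these bulk samples. Some labels conflict. For array 1 of OV against 3T3 in IVTIII both sources name 3T3, while its description puts OV in Cy5, which was followed. The description of array 2 in GA from 10 ng speaks of replicas, while its title and sources name both lines, which were followed. Without these arrays Gstp1 averaged -0.93 ± 0.09 in IVTIII and -1.94 ± 0.89 in GA, and Mgst1 averaged 2.72 ± 0.53 in IVTIII and 2.19 ± 0.31 in GA (SD, n = 3 each).

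Genes with a value ranged over arrays from 4594 to 13594 in GA at 10 pg, 1989 to 4311 in SMART at 10 pg, 4810 to 6312 in IVTIII, 7511 to 12101 in GA, 8766 to 13384 in SMART, 7575 to 9435 in SM37 and 11006 to 13330 in unamplified cDNA. Of 15 tested markers of ovarian surface epithelium and mesothelium in unamplified cDNA, 9 were called higher in OV, among them Wt1 and Upk1b, and 1, Krt18, lower. Of 11 tested fibroblast markers, Col1a1 and Col3a1 were called higher and Thy1, S100a4, Prrx1 and Vim lower in OV. The leukocyte list had 1 called gene of 7 (Cd14, higher), and the endothelial list 1 of 5 (Cd34, lower). The 4 GA arrays at 10 pg stand apart. They correlated with each other across genes at r between 0.46 and 0.86, but with the arrays of the other comparisons at r between -0.21 and 0.06, and none of 10 tested epithelial markers was called on them. Xist, used with Cdkn2a to check the direction of the ratios, averaged -0.10 ± 0.38 on these arrays, against 3.21 ± 1.30 in unamplified cDNA, and Upk1b -0.28 ± 0.12, against 4.26 ± 0.33 (SD, n = 4 each). Wt1 (0.82 ± 0.46) and Krt8 (1.77 ± 1.01) kept positive means there. Results that rest on these arrays are therefore given with and without them. In SMART at 10 ng, r between single arrays went as low as -0.07.

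The stretch of 100 bases before the transcription start is shown for Gstp1 and Mgst1, the members with the most negative and the most positive ratio in unamplified cDNA. Sequences are from RefSeq (GRCm38.p6), read 5′ to 3′ on the strand of the gene, and for Mgst1 the first of its listed starts was used. Capitals mark matches, on both strands, to TGAGTCA (the TPA response element bound by AP-1), TGACNNNGC (the core of the antioxidant response element bound by Nfe2l2) and GGGCGG (the GC box).

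Gstp1, chr19:4037913-4038012, minus strand: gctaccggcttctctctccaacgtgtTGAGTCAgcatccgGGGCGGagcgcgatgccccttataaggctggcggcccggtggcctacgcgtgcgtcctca

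Mgst1, chr6:138140427-138140526, plus strand: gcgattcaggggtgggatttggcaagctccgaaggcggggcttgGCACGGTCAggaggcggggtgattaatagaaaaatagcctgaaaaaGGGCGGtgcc

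TGAGTCA starts 74 bases before the start of Gstp1, and the complement of TGACNNNGC starts 56 bases before that of Mgst1. Both windows hold a GC box. Of 8 members with a promoter entry, 1 holds TGAGTCA, 2 hold TGACNNNGC (Mgst1 and Gstm5) and 5 hold GGGCGG within these 100 bases, and the same motifs occur in 1.88%, 4.82% and 24.7% of all 32851 promoter windows of this length. A match describes letters and no measurement here bears on binding.

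Gstp1 was lower in OV than in 3T3 in 6 of 7 comparisons and Mgst1 was higher in 6 of 7, with GA at 10 pg the exception for both genes. In SMART at 10 pg Gstp1 had ratios of -1.32, -1.98, -1.63 and -1.67 on its 4 arrays, a mean of -1.65 ± 0.27 (SD, n = 4), the lowest of all 1159 genes measured on 4 arrays. In IVTIII its ratios were -1.05, -1.01, -0.95 and -0.84, the tightest set of any comparison, with a mean of -0.96 ± 0.09. In GA from 10 ng they were -2.92, -2.77, -1.16 and -1.74. Arrays 1 and 2 thus lay more than 1 log2 unit below arrays 3 and 4, and the mean was -2.15 ± 0.84. In SMART from 10 ng they were -1.31, -1.58, -1.40 and -1.94 (mean -1.56 ± 0.28), and SM37 gave a value on 3 arrays, -1.60, -1.77 and -1.32 (mean -1.56 ± 0.23). In unamplified cDNA they were -2.51, -1.89, -3.10 and -3.28, a mean of -2.70 ± 0.63 or 6.48-fold less in OV. Of 10185 genes with a value on all 4 unamplified arrays, 5 had a lower mean. Without GA at 10 pg, Gstp1 was negative on 23 of 23 arrays with a value, between -3.28 and -0.84.

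**Figure D1:**
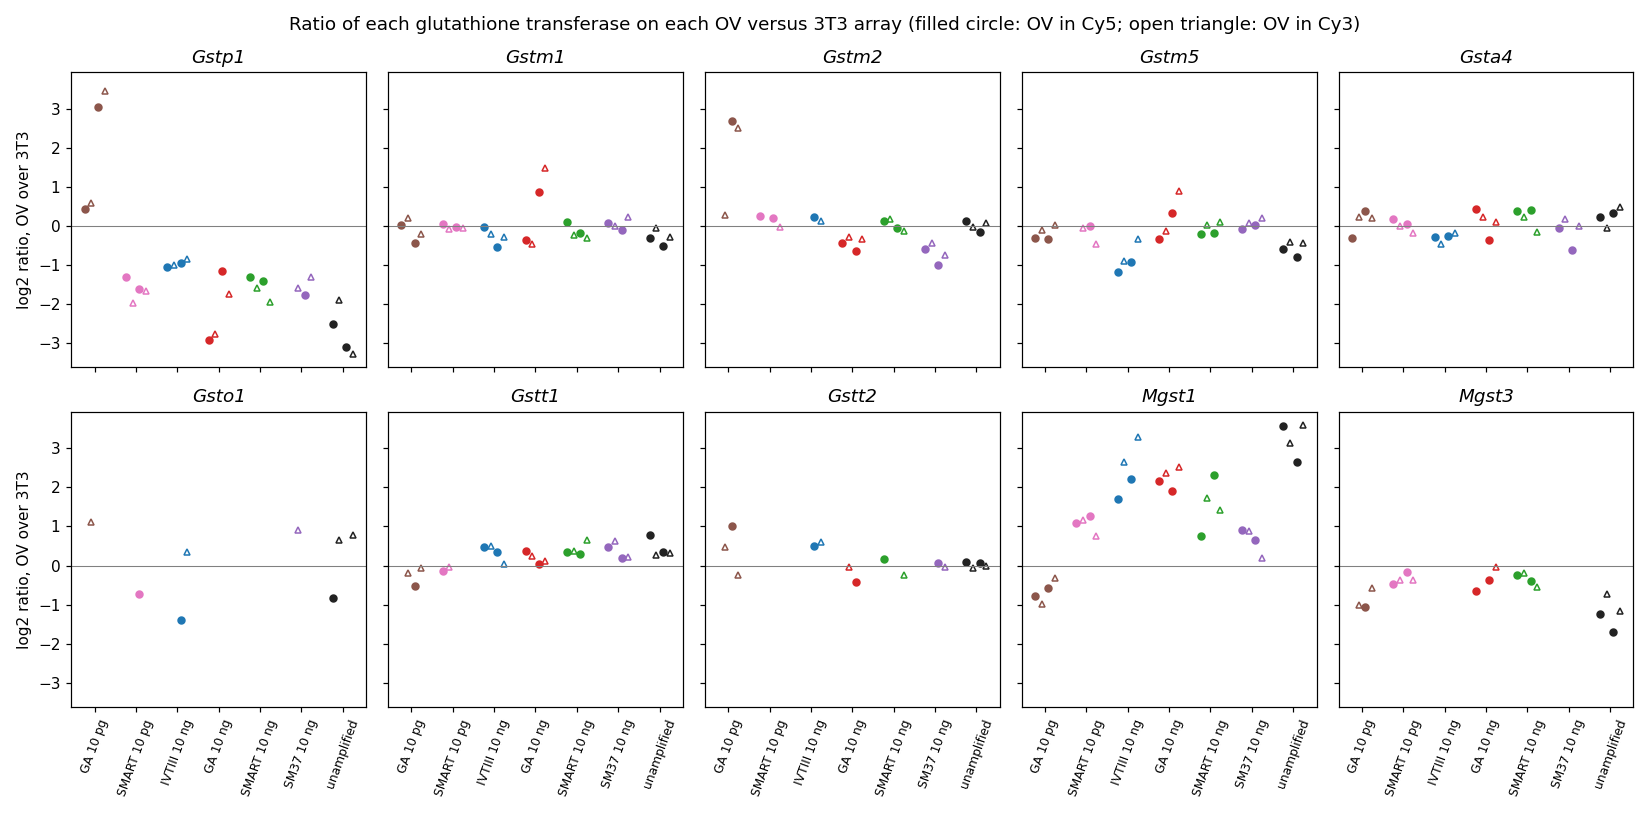
Log2 ratio of OV over 3T3 (y axis) of each of the 10 glutathione transferases on each array, by target (x axis, low to high RNA input, with unamplified cDNA at the right). Filled circles are arrays with OV in Cy5 and open triangles arrays with OV in Cy3. Gstp1 lies below 0 and Mgst1 above 0 on all arrays but those of GA at 10 pg, and the sign of Gsto1 goes with the dye.

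Mgst1 encodes the microsomal glutathione transferase, a membrane enzyme with transferase and peroxidase activity. SMART at 10 pg gave ratios of 1.09, 1.17, 1.26 and 0.75 (mean 1.07 ± 0.22, SD, n = 4). IVTIII gave 1.69, 2.65, 2.23 and 3.28 (mean 2.46 ± 0.67) and GA from 10 ng 2.16, 2.37, 1.90 and 2.52 (mean 2.24 ± 0.27). SMART from 10 ng gave 0.76, 1.72, 2.31 and 1.41 (mean 1.55 ± 0.65), and SM37 0.91, 0.89, 0.66 and 0.20 (mean 0.66 ± 0.33). In unamplified cDNA the ratios were 3.56, 3.13, 2.65 and 3.60 (mean 3.23 ± 0.44, or 9.41-fold more in OV), and 13 of 10185 genes had a higher mean, Upk1b and Wt1 among them. All 24 arrays outside GA at 10 pg were positive. The arrays of SM37 and SMART at 10 pg lay below those of IVTIII and GA from 10 ng without overlap, a trait not counted over all genes.

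**Figure D2:**
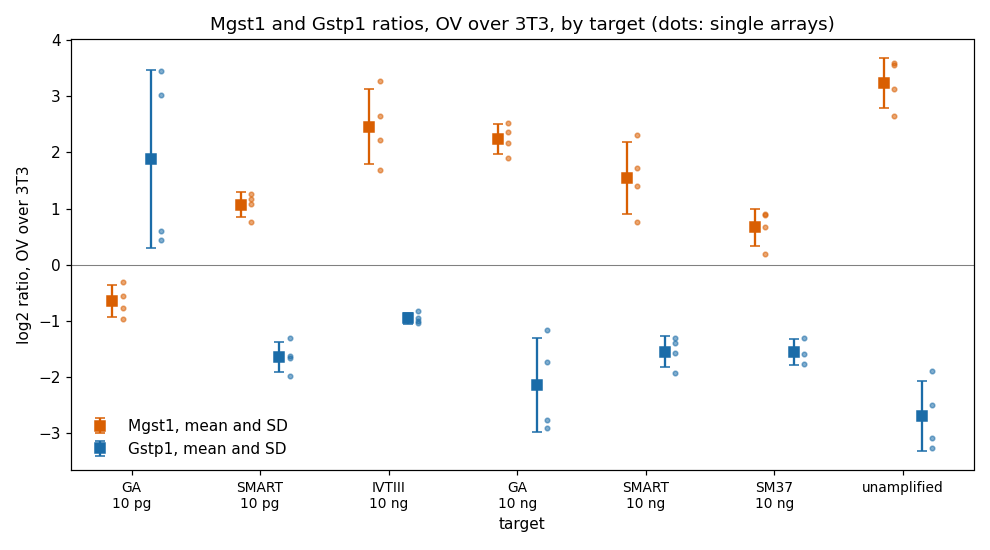
Log2 ratio of OV over 3T3 (y axis) of Mgst1 (orange) and Gstp1 (blue) by target (x axis). Squares and bars are the mean and SD, dots single arrays. The genes lie on opposite sides of 0 for every target, and in GA at 10 pg both have changed sides: Gstp1 at 1.88 and Mgst1 at -0.66.

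Mgst1 minus Gstp1 on the same array is free of any constant shared by all spots of that array, though not of a correction made by print tip or intensity. This gap averaged 2.72 ± 0.37 in SMART at 10 pg, 3.42 ± 0.60 in IVTIII, 4.38 ± 0.97 in GA, 3.11 ± 0.71 in SMART, 2.14 ± 0.55 in SM37 and 5.93 ± 0.77 in unamplified cDNA (SD, n = 4, and 3 for SM37). In GA at 10 pg the gap was -2.54 ± 1.33, with all 4 arrays between -3.76 and -1.21.

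On the GA arrays at 10 pg Gstp1 had ratios of 0.43, 0.60, 3.03 and 3.45, against -2.51, -1.89, -3.10 and -3.28 in unamplified cDNA, and Mgst1 had -0.78, -0.97, -0.57 and -0.31, against 3.56, 3.13, 2.65 and 3.60. For both genes the arrays did not overlap, a trait not counted over all genes. Gstp1 was low on arrays 1 and 2 and high on arrays 3 and 4, so its mean of 1.88 ± 1.59 describes none of them. Gstm2 showed a like step, with 0.29 on array 2 and 2.69 and 2.51 on arrays 3 and 4, against a mean of 0.01 ± 0.13 in unamplified cDNA. Mgst3 (-1.02, -1.06 and -0.59 on arrays 2 to 4) kept its negative sign. The epithelial markers of these arrays are given above, and the part of array quality or labelling in these values was not tested.

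The membrane gene Mgst3, whose product acts on leukotrienes and lipid peroxides, was below 0 on each of the 18 arrays that measured it. It had -0.46, -0.36, -0.15 and -0.37 in SMART at 10 pg (mean -0.34 ± 0.13), -0.24, -0.19, -0.40 and -0.54 in SMART from 10 ng (mean -0.34 ± 0.16) and -1.24, -0.72, -1.70 and -1.15 in unamplified cDNA (mean -1.21 ± 0.40, SD, n = 4, or 2.31-fold less in OV). GA from 10 ng had 3 values with a mean of -0.35 ± 0.30, and IVTIII and SM37 had none. Mgst3 and Mgst1, both membrane enzymes, thus had means of opposite sign in SMART at 10 pg, GA and SMART from 10 ng, and unamplified cDNA.

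The ratios of the mu-class genes changed with the target. Apart from the step of Gstm2 in GA at 10 pg, their means at 10 pg lay between -0.19 and 0.14. Gstm5 was below 0 on all arrays of IVTIII (-1.19, -0.91, -0.92 and -0.34, mean -0.84 ± 0.36), averaged 0.19 ± 0.55 in GA from 10 ng, -0.07 ± 0.16 in SMART and 0.05 ± 0.12 in SM37, and was below 0 on all arrays of unamplified cDNA (-0.60, -0.43, -0.79 and -0.45, mean -0.57 ± 0.17; SD, n = 4 each). Gstm1, the best measured member with a value on all 56 arrays, averaged -0.27 ± 0.21 in IVTIII and -0.28 ± 0.19 in unamplified cDNA. In GA from 10 ng it was at -0.36 and -0.46 on arrays 1 and 2 and at 0.86 and 1.49 on arrays 3 and 4, so the mean of 0.38 ± 0.95 spans both signs. Gstm2 was negative on all arrays of GA from 10 ng (-0.44, -0.29, -0.65 and -0.35, mean -0.43 ± 0.16) and SM37 (-0.60, -0.43, -0.999 and -0.76, mean -0.70 ± 0.24), against values between -0.16 and 0.13 in unamplified cDNA. GA and SM37 thus gave Gstm2 negative values throughout, where unamplified cDNA had values of both signs near 0.

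Gsta4, which conjugates the lipid peroxidation product hydroxynonenal, stayed between -0.61 and 0.48 on all 28 arrays, with means between -0.29 ± 0.12 in IVTIII and 0.25 ± 0.22 in unamplified cDNA. The theta-class gene Gstt1 was positive on all arrays of IVTIII (0.34 ± 0.21), GA (0.19 ± 0.14), SMART (0.41 ± 0.16) and SM37 (0.38 ± 0.21), all from 10 ng, and of unamplified cDNA (0.79, 0.27, 0.33 and 0.32, mean 0.43 ± 0.24). Its means in these amplified targets differed from that of unamplified cDNA by 0.24 or less. At 10 pg it was below 0 on each array with a value: GA gave a mean of -0.26 ± 0.24 on 3 and SMART gave -0.14 and -0.04 on 2. Gstt2 had at most 3 values in any amplified target and was at 0.02 ± 0.07 in unamplified cDNA.

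A gene was called different between the lines at a log odds above 0 in limma, and only genes with a value on all 4 arrays entered. Mgst1 was called higher and Gstp1 lower in SMART at 10 pg (of 5 members tested, where 6.04% of all genes were called higher and 2.93% lower, 8.97% in all), in IVTIII (of 6, beside 11.6% and 10.4%, 22.0% in all), in GA (of 7, beside 2.09% and 6.14%, 8.23% in all) and in SMART (of 8, beside 2.53% and 1.01%, 3.54% in all), with no other member called in these comparisons. In unamplified cDNA 1 of 9 members tested was called higher (Mgst1) and 3 lower (Gstp1, Gstm5 and Mgst3), where 8.81% of all genes tested were called higher and 7.30% lower (16.1% in all). SM37 had 0 of 6 higher and 1 lower, Gstm2 (beside 3.91% and 9.10%, 13.0% in all), and Gstp1, with 3 values, was not tested there. GA at 10 pg had 0 of 5 called in either direction (beside 2.73% higher and 2.71% lower, 5.45% in all). Since the choice of members used these ratios, nothing is read from the counts. The 4 arrays of a comparison hold 2 replicates in swapped dyes. With assumed dye-swap pairs averaged, the calls of Gstm5 in unamplified cDNA, Gstp1 in GA from 10 ng and Gstm2 in SM37 were lost. Without array 1 or array 4 of unamplified cDNA the calls of Gstm5 and Mgst3 were lost, and without array 2 or 3 that of Gstm5. The call of Gstp1 in GA from 10 ng was lost without array 2, and that of Gstm2 in SM37 without array 1, 3 or 4.

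How far an amplified target kept the ratio of unamplified cDNA was asked gene by gene over the 4 amplified and the 4 unamplified arrays, at a Benjamini-Hochberg adjusted p under 0.05 in limma. The difference is the amplified minus the unamplified mean. Its SE and the test count the 4 arrays of a comparison as separate, though they hold 2 replicates in swapped dyes. Dye-swap pairs were not averaged for this test, so the SE may be too small. For Gstp1 it was 1.74 ± 0.32 in IVTIII, 1.14 ± 0.34 in SMART, 1.13 ± 0.34 in SM37, 1.05 ± 0.34 in SMART at 10 pg and 0.55 ± 0.52 in GA (SE). Each amplified mean was thus less negative than the unamplified one, but in GA the difference was not called and the arrays overlapped. The arrays of IVTIII and SM37 did not overlap those of unamplified cDNA. For Mgst1 the difference was -0.77 ± 0.40 in IVTIII, -0.996 ± 0.26 in GA, -1.69 ± 0.39 in SMART, -2.17 ± 0.25 in SMART at 10 pg and -2.57 ± 0.28 in SM37, and the arrays of all but IVTIII did not overlap. The share of all genes without overlap was not counted, so nothing is read from this for either gene. Outside GA at 10 pg, where both ratios had the opposite sign, the order of the targets was thus not the same for both genes. IVTIII there kept the smallest share of the log2 ratio of Gstp1 and the largest of that of Mgst1. With single arrays left out, the Mgst1 means overlapped, between 2.19 and 2.72 in IVTIII and 2.14 and 2.35 in GA. Which gene is nearer to its unamplified value was not tested between methods.

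**Figure D3:**
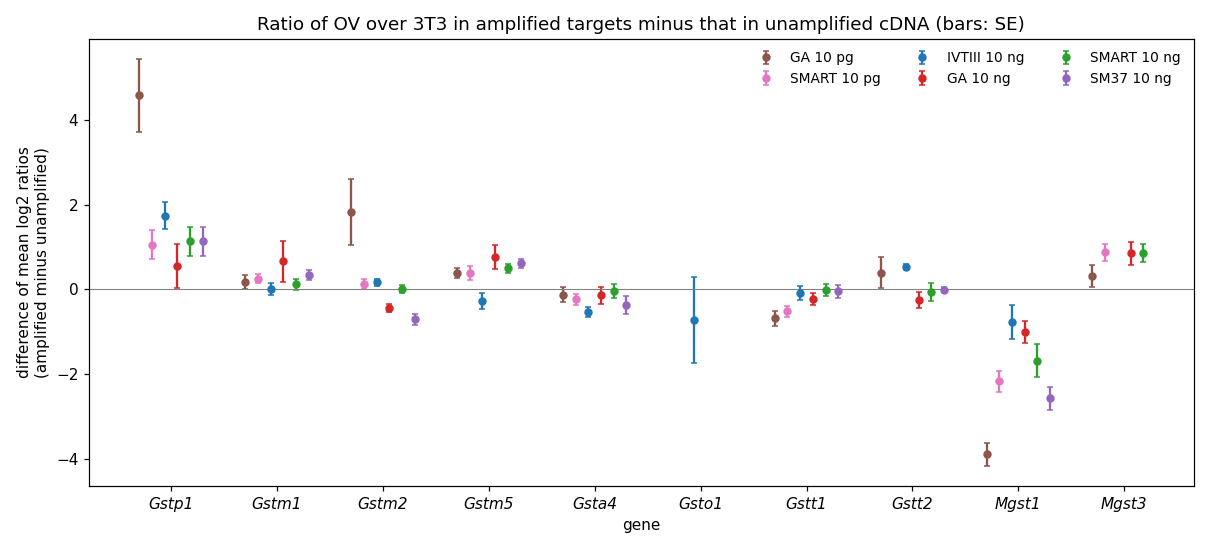
Mean log2 ratio of OV over 3T3 in each amplified target minus that in unamplified cDNA (y axis) for each gene (x axis), with the SE as bars, for genes with at least 2 values in the amplified target. Differences of Gstp1 lie above 0 and those of Mgst1 below 0 for all 6 targets, and the largest are those of GA at 10 pg.

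Members were called in this test in every target, beside a large background. SMART at 10 pg had Gstp1 and Mgst3 higher and Mgst1 lower of 5 members tested, where 19.9% of all genes were called higher and 14.8% lower (34.8% in all), and GA at 10 pg had Gstp1 higher and Mgst1 lower of 5 (beside 15.7% and 20.2%, 35.9% in all). IVTIII had Gstp1 higher and Gsta4 lower of 6 (beside 25.0% and 23.2%, 48.1% in all), GA had Gstm5 higher and Gstm2 and Mgst1 lower of 7 (beside 7.10% and 14.3%, 21.4% in all), SMART had Gstp1, Gstm5 and Mgst3 higher and Mgst1 lower of 8 (beside 7.55% and 10.5%, 18.0% in all), and SM37 had Gstm5 higher and Gstm2 and Mgst1 lower of 6 (beside 14.6% and 23.3%, 37.9% in all). When all arrays were scaled to the same spread, the calls of Gstp1, Gstm5 and Mgst1 in SMART and that of Gstp1 in SMART at 10 pg were lost. Leaving out single arrays ended the calls of Gstm5 in GA (GA array 3 or 4, or any unamplified array), of Gstm2 in GA (GA array 1 or 3, or unamplified array 1, 2 or 4) and of Gstm5 in SMART (SMART array 2, or unamplified array 1 or 3). The same ratios chose the members, so these counts too are a description. The comparisons share the 4 unamplified arrays, and their values are set side by side without a test between them.

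Gsto1, whose product reduces dehydroascorbate and arsenic compounds, behaved unlike the other members. Read as deposited, that is as Cy5 over Cy3 whatever the target, it was below 0 on all 19 arrays that measured it, with a mean of -0.96 ± 0.37 (SD). Of 11901 genes with a value on at least as many arrays, none had a lower mean. In unamplified cDNA it was at -0.83 with OV in Cy5 and at -0.66 and -0.78 with OV in Cy3. In IVTIII it was at -1.39 with OV in Cy5 and at -0.35 with OV in Cy3. On the 11 arrays that set OV replicas against each other or held 1 target in both dyes, and so carry no difference between the lines, its mean was -1.04 ± 0.40, with 11 of 11 below 0. The array of IVTIII with the same target in both dyes had -0.79, farther from 0 than 99.7% of its genes. Pairs of replica arrays with swapped dyes gave -1.55 and -1.05 in GA at 1 ng, -0.87 and -1.10 in GA at 10 pg, and -0.98 and -1.31 in IVTIII. The turned ratio of Gsto1 therefore had the sign of the dye on all 8 arrays of OV against 3T3, and its mean in unamplified cDNA, 0.20 ± 0.90 (SD, n = 3), lies between values of both signs. GA and SMART from 10 ng had no value for it in this comparison.

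**Figure D4:**
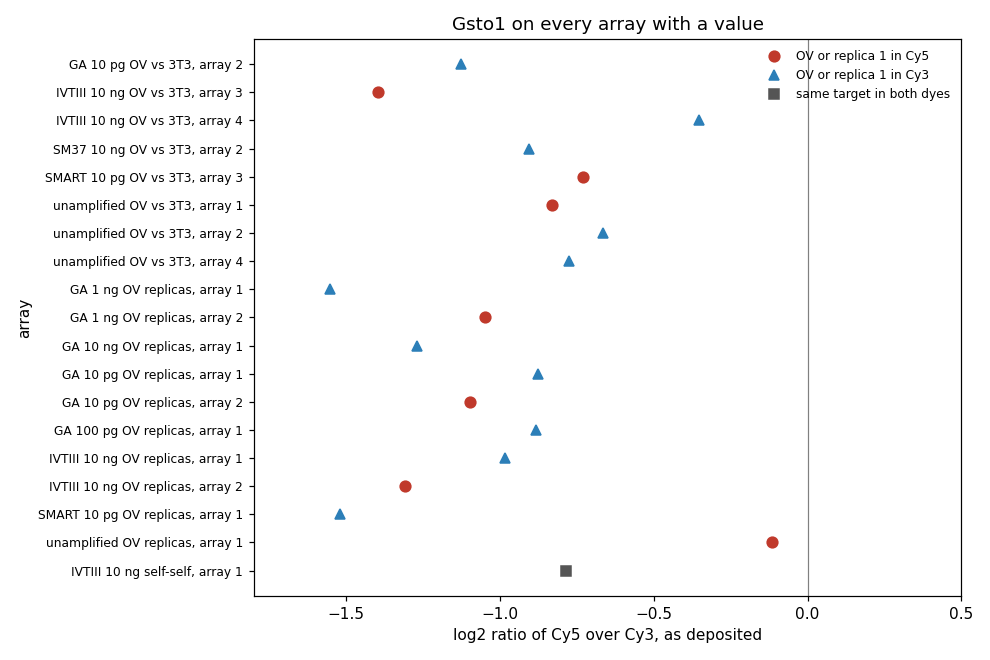
Gsto1 log2 ratio of Cy5 over Cy3 as deposited (x axis) on each of the 19 arrays with a value (y axis: comparison and array). Circles have OV or replica 1 in Cy5, triangles have it in Cy3, and the square is an array with the same target in both dyes. All values lie below 0 whichever dye OV carries.

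The part of a ratio that stays with the dye was tested for all genes as the mean over both dye orientations, in which OV over 3T3 cancels. This measure was not used to choose the members. No gene was called in any of the 7 comparisons (0%) at an adjusted p under 0.05 in limma, and from 19 genes in GA at 10 pg to 821 in unamplified cDNA had an unadjusted p under 0.05. Gsto1 had too few values to be tested. Of the other members, the effect with the smallest unadjusted p was that of Mgst1 in IVTIII (-0.50 ± 0.14, SE, n = 4; unadjusted p = 0.0141, adjusted p = 0.775 in limma): its ratio was 1.69 and 2.23 with OV in Cy5 and 2.65 and 3.28 with OV in Cy3. The next were Gstp1 in SMART at 10 pg (0.18 ± 0.08; adjusted p = 0.539 in limma) and Mgst3 in unamplified cDNA (-0.27 ± 0.11; adjusted p = 0.613 in limma). For Gstp1 and Mgst1 these effects are small beside the ratios between the lines.

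Replicas of 1 OV RNA show the size of the members' ratios where the lines do not differ, with amplification, labelling and hybridization together. Over both arrays of each pair, SMART replicas had a median size over members of 0.18 at 10 pg, 0.05 at 100 pg, 0.05 at 1 ng and 0.07 at 10 ng, against 0.18, 0.10, 0.04 and 0.09 over all genes. GA replicas had 0.22 at 10 pg, 0.27 at 100 pg, 0.14 at 1 ng and 0.22 at 10 ng, against 0.25, 0.16, 0.11 and 0.12. Labels disagree on the input of the SMART arrays titled 1 ng, which their descriptions give as 100 pg. The 10 ng replicas of IVTIII and SM37 had 0.11 and 0.25 over members and 0.11 and 0.20 over all genes. The unamplified replicas were 1 array, with a median size of 0.09 over 9 members and at most 0.15 (Gstt2), against 0.07 over all genes. Sizes of amplified replicas come from the mean of 2 dye-swapped arrays and the unamplified size from 1 array. The amplified sizes are therefore not compared with the unamplified one.

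**Figure D5:**
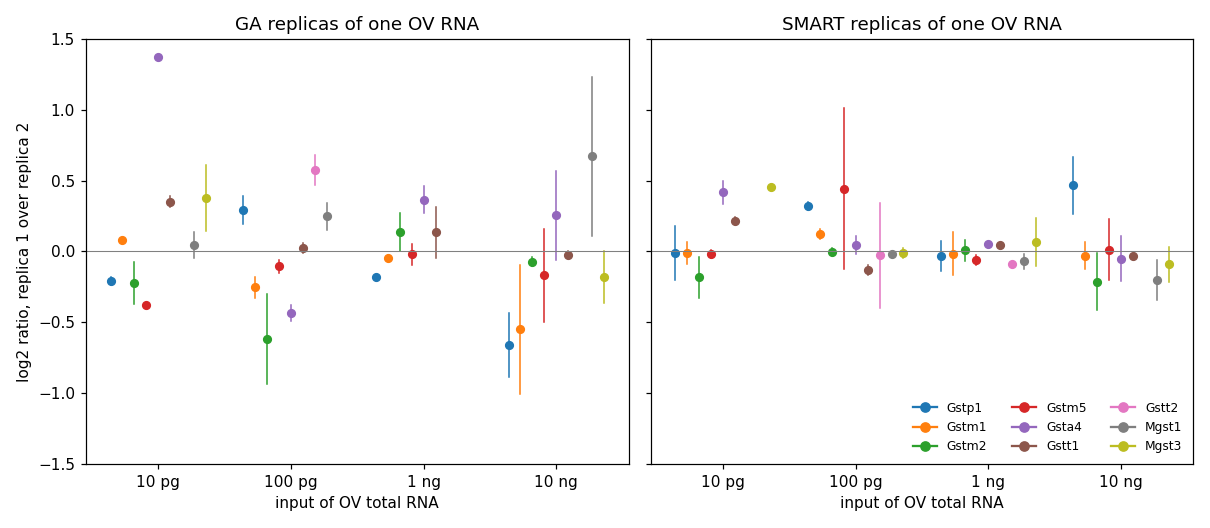
Log2 ratio of replica 1 over replica 2 (y axis) for members measured on both arrays, by input of OV RNA (x axis, low to high), for GA (left) and SMART (right). Dots are means of both arrays and lines join the single values. Gsta4 in GA at 10 pg lies highest, at 1.37, and Gsto1 is left out because its sign goes with the dye.

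Single members departed from 0 in single pairs of replicas. Gsta4 was at 1.35 and 1.38 in GA at 10 pg, farther from 0 than 94.7% of genes, and at 0.33 and 0.50 in SMART at 10 pg, although OV and 3T3 hardly differed in it. Gstp1 was at -0.88 and -0.44 in GA from 10 ng and at 0.67 and 0.26 in SMART from 10 ng, there farther from 0 than 99.7% of genes. Its mean ratios between the lines in the same methods, -2.15 and -1.56, are larger than these. Gstt2 was at -0.64 and -0.58 in IVTIII, and Mgst1 at 0.11 and 1.23 in GA from 10 ng. With 2 arrays per pair these values have no replicate check beyond the dye swap.

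The neural progenitor arrays were not used to choose the members. They set 2 amplifications of the same RNA against each other with swapped dyes, so a test on them compares those amplifications, not cells. With GA, 14.6% of 8766 genes (7.53% higher and 7.10% lower in replica 1) were called at an adjusted p under 0.05 in limma and 0 of 7 members measured on both arrays. The member farthest from 0 was Mgst3 at 0.54 and 0.06 (mean 0.30, adjusted p = 0.245 in limma). With SMART, 5 of 8229 genes (0.0608%) and 0 of 8 members were called. Gstm1 was at 0.62 and 0.52 (mean 0.57, unadjusted p = 0.00276, adjusted p = 0.313 in limma) and Gsta4 at -0.90 and -0.23 (mean -0.57, adjusted p = 0.449 in limma), both farther from 0 than 98.5% of genes measured. The median size over members was 0.27 with SMART and 0.16 with GA, against 0.10 and 0.20 over all genes. Gsto1 had no value on these arrays.

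Of the 23 other listed transferases and relatives, 20 were on the array and 14 were tested in unamplified cDNA, where 1 was called higher and 2 lower in OV (16.1% of all genes were called in either direction, and the median ratio was -0.0017 over the list and -0.0038 over all genes tested). Gstm3, another mu-class gene, was called lower both in IVTIII (-1.75 ± 0.22) and in unamplified cDNA (-1.24 ± 0.21; SD, n = 4 each), and was at 0.76, 1.90 and 1.68 on the 3 arrays of GA at 10 pg that measured it. Gstm3 was also called lower in SM37 (-0.75 ± 0.32). That call was lost with a dye term, with assumed dye-swap pairs averaged and without array 2, 3 or 4. Its means were -0.53 ± 0.58 in SMART from 10 ng, where it was not called, and -0.65 ± 0.21 on 3 arrays of GA from 10 ng. Ptges, the membrane-bound prostaglandin E synthase of the family of Mgst1, had -0.96 ± 0.31 in unamplified cDNA, and the chloride channel protein Clic4, which shares the fold of the soluble transferases, was higher at 0.65 ± 0.17. The call of Ptges was lost without array 1 or 4 and with assumed dye-swap pairs averaged, and that of Clic4 without array 1, 2 or 3. Neither gene was called in an amplified target. Clic4 averaged between 0.01 and 0.30 in the targets from 10 ng and 0.39 ± 0.57 in GA at 10 pg. Ptges averaged between -0.76 and -0.22 in the targets from 10 ng and 0.50 ± 0.24 in GA at 10 pg.

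Of the genes that make, recycle or break down glutathione, 1 of 21 tested was called higher and 4 were called lower in unamplified cDNA (beside 8.81% higher and 7.30% lower over all genes), with a median ratio of -0.20. Gsr, which reduces oxidized glutathione, was higher at 0.87 ± 0.14. Esd, an esterase that releases glutathione from its formaldehyde adduct, was lower both in SM37 (-1.13 ± 0.38) and in unamplified cDNA (-1.17 ± 0.28; SD, n = 4 each). The SM37 call of Esd was lost with assumed dye-swap pairs averaged. Esd was not called in IVTIII (-0.38 ± 0.25), GA from 10 ng (-1.02 ± 0.47), SMART from 10 ng (-0.55 ± 0.37) or GA at 10 pg (-0.39 ± 1.40). Lower in unamplified cDNA were also the glutaredoxin genes Glrx (-0.87 ± 0.21) and Glrx5 (-0.71 ± 0.20). So was Gclc, the catalytic subunit of the enzyme that starts glutathione synthesis. The call of Glrx was lost without array 4 and that of Glrx5 without array 1, 3 or 4. Glrx5 was also called lower in SM37 (-0.93 ± 0.14), but not in IVTIII (0.01 ± 0.07), GA (-0.09 ± 0.16) or SMART (-0.21 ± 0.16). On 3 arrays of GA at 10 pg it averaged 0.93 ± 0.75. Glrx was called in no amplified target, with -0.35 ± 0.28 in GA and -0.43 ± 0.38 in SMART from 10 ng. Of the 6 efflux pumps tested in unamplified cDNA 0 were called higher and 2 lower, beside the same shares over all genes. These were Abcb1a (-1.13 ± 0.24) and Abcc1 (-0.59 ± 0.05), which exports glutathione conjugates. Neither was called in an amplified target. Abcb1a averaged between -0.53 and -0.28 in the targets from 10 ng and 1.05 ± 0.45 in GA at 10 pg. Abcc1 averaged between -0.40 and -0.28 in IVTIII, GA and SMART, 0.34 ± 0.32 in SM37 and 0.09 ± 0.29 in GA at 10 pg.

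In the list of Nfe2l2 targets and oxidant defence 3 of 30 genes were called higher and 4 lower in unamplified cDNA (beside 8.81% and 7.30% of all genes), with a median ratio of -0.08. Hmox1, which degrades heme, was higher both in GA from 10 ng (1.70 ± 0.48) and in unamplified cDNA (1.63 ± 0.25). It was also called higher, with smaller means, in IVTIII (0.52 ± 0.07) and SMART (0.59 ± 0.17), but not in SM37 (0.49 ± 0.20). The IVTIII call of Hmox1 was lost with a dye term, with assumed dye-swap pairs averaged and without any single array. Its SMART call was lost without array 2 or 3. At 10 pg its means were 0.37 ± 0.24 in SMART and -0.30 ± 0.31 in GA (n = 3 each). Ephx1, the microsomal epoxide hydrolase, was lower in SMART (-0.99 ± 0.35) and in unamplified cDNA (-2.32 ± 0.52), as was Txn1, thioredoxin, at -0.91 ± 0.33 and -1.51 ± 0.39 (SD, n = 4 each). Ephx1 was also called lower in IVTIII (-0.74 ± 0.20), a call lost with assumed dye-swap pairs averaged and without array 1, 2 or 4. On 3 arrays each, too few to be tested, Ephx1 averaged -0.82 ± 0.13 in GA, -1.20 ± 0.28 in SM37 and 1.55 ± 1.18 in GA at 10 pg. Txn1 was also called lower in GA (-1.29 ± 0.44) and SMART at 10 pg (-0.66 ± 0.30), but not in IVTIII (-0.41 ± 0.34) or SM37 (-1.09 ± 0.57). Its GA call was lost without array 2. Its call in SMART at 10 pg was lost with assumed dye-swap pairs averaged and without array 1, 2 or 4. In GA at 10 pg Txn1 averaged 0.36 ± 0.66. Blvrb, which reduces biliverdin, was called lower in SMART (-0.80 ± 0.33), SM37 (-1.10 ± 0.18) and unamplified cDNA (-1.44 ± 0.29). The SMART call was lost without array 2 or 3. Blvrb averaged -0.63 ± 0.06 on 3 arrays of GA, was at -0.88 on 1 array of SMART at 10 pg and had no value in IVTIII. It was called higher in GA at 10 pg (2.40 ± 0.70). That call was lost without array 3 or 4 of that target and with assumed dye-swap pairs averaged. Over the 4 lists 17 of 71 genes were called in unamplified cDNA (beside 16.1% of all genes tested), and 11 without its array 1.

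The genes whose ratios ran most like those of Gstp1 were sought among 2118 genes sharing at least 24 of its arrays. Genes with clone names were left out of these. They were Rhob, a small GTPase (r = 0.97, rho = 0.89, n = 24 arrays), Cavin3, a caveolar protein (r = 0.95, n = 25), Ly6c1, a surface antigen (r = 0.95, n = 24), the cell cycle gene Cks2 (r = 0.94, n = 26) and the spindle checkpoint gene Bub3 (r = 0.94, n = 26). All 5 had a negative mean in unamplified cDNA and a positive mean in GA at 10 pg, and without the GA arrays at 10 pg r was between 0.62 and 0.89 (n = 20 to 23). The arrays fall into those 2 sets and share RNA pools, so the values describe likeness and carry no p. Of the other members, 5 shared at least 24 arrays with Gstp1, and their r moved with those 4 arrays. It was -0.68 for Mgst1 (n = 27) and -0.36 without GA at 10 pg (n = 23). For Gstt1 it was -0.62 (n = 24) and -0.20 without them (n = 21), for Gsta4 -0.06 (n = 27) and -0.58 (n = 23), for Gstm1 0.01 (n = 27) and 0.29 (n = 23), and for Gstm5 0.06 (n = 26) and 0.02 (n = 22). Mgst1 was thus the most opposed of these with GA at 10 pg and Gsta4 without it.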

How the data were processed

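For each of the 56 arrays the authors deposited a log2 ratio per probe, computed in limma from background-subtracted GenePix spot intensities with print-tip lowess. Intensities were not used here, so signal over background is unknown and the number of genes with a value stands in for depth. Why values are missing is not given in the sources used here. After 231 of 21997 probes were dropped as controls, 16632 probes named a single gene, 139 named more than 1 and 4995 named none. Probes of a gene were averaged (15063 genes). The study states the direction of the ratio in both ways. Cy5 over Cy3, the likely one, was used and checked with Xist and Cdkn2a. Groups and dyes follow the labels, which conflict for 2 arrays of OV against 3T3 as described above. For input, 22 descriptions give 10 μg and 6 give 100 mg where the study's methods give 10 ng and 100 μg, and the methods were followed.

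Ratios were fitted per comparison with lmFit and eBayes (limma 3.58.1, R 4.3.3, prior proportion 0.01) on genes with a value on all arrays of the fit, and summarized in Python 3.11.15. A gene was called between the lines at a log odds above 0 and otherwise at a Benjamini-Hochberg adjusted p under 0.05. By the study's methods the 4 arrays of a comparison hold 2 replicates per line in swapped dyes. They come from the same 2 RNA pools, so p-values reflect how far amplifications and hybridizations vary, not cultures. The fits were also run on simulated data with 200 changed genes. Those arrays were drawn independently, without dye-swap pairs, so that run cannot show how the pairs affect the fits.

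Members, gene lists and rules were chosen with earlier results of these data known. Named are all members, up to 4 genes per list called in unamplified cDNA with the largest mean ratio, the 5 genes most like Gstp1, and Xist and Cdkn2a. Gclc and the cell type markers were named after their values were seen. Alternatives covered missing values, the call rule, centring and scaling, dye and replicate terms, assumed dye-swap pairs and each array left out.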

Additional observations from a re-analysis of the deposited data

Results flagged for a closer look

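In GA at 10 pg all 4 arrays of Gstp1 were above 0 (mean 1.88), while all 4 unamplified arrays were below 0 (mean -2.70). In the same comparison all 4 arrays of Mgst1 were below 0 (mean -0.66), while all 4 unamplified arrays were above 0 (mean 3.23). Both differences from unamplified cDNA were called in the test of amplified minus unamplified given above (4.57 for Gstp1 and -3.89 for Mgst1). Members were chosen on these ratios, so those calls are a description.

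Gstt1 on array 1 of unamplified cDNA, at 0.79, stood apart from the other 3 arrays (0.27 to 0.33) by 0.87 of the whole range, more than Dixon's test allows for 4 values at the 95% level. It was the only such array among 46 sets of 4 member values, and chance gives about 1 in 20.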

How the results depend on the processing

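No alternative turned the sign of the ratio between the lines of Gstp1, Mgst1, Mgst3 or Gstt1. Of 473 recomputed ratios of members between the lines 19 changed sign, 18 of them with 1 array left out: 4 each of Gstm2, Gsta4 and Gstt2, 3 of Gsto1 and 2 each of Gstm1 and Gstm5. Apart from Gsto1, the values that changed sign were at most 0.19 in size. Of 188 ratios between replicas 35 changed sign with 1 of both arrays left out. With single arrays left out, Gstp1 ranged between -1.001 and -0.93 in IVTIII, -2.47 and -1.89 in GA, -1.64 and -1.43 in SMART, -1.68 and -1.46 in SM37, 1.35 and 2.36 in GA at 10 pg, -1.76 and -1.54 in SMART at 10 pg and -2.96 and -2.50 in unamplified cDNA, and Mgst1 between 2.19 and 2.72, 2.14 and 2.35, 1.30 and 1.81, 0.58 and 0.82, -0.77 and -0.55, 1.01 and 1.17, and 3.11 and 3.43 in the same order. Counts over all genes moved far more. With an adjusted p under 0.05 in limma in place of the log odds, genes called between the lines were 2221 in place of 873 in IVTIII, 1525 for 449 in GA, 523 for 262 in SMART, 2483 for 752 in SM37, 756 for 241 in GA at 10 pg, 386 for 104 in SMART at 10 pg and 4973 for 1640 in unamplified cDNA. Listed genes called were then 25 for 15, 17 for 7, 10 for 5, 25 for 10, 7 for 4, 4 for 1 and 48 for 17 in the same order. With assumed dye-swap pairs averaged, 549 genes were called in IVTIII, 93 in GA, 436 in SMART, 222 in SM37, 127 in GA at 10 pg and 59 in SMART at 10 pg, and listed genes were 2 in GA, 9 in SMART, 4 in SM37, 1 in GA at 10 pg and 0 in SMART at 10 pg. With a dye term, 247 genes were called in GA and 149 in GA at 10 pg, and 3 and 2 listed genes. Genes with at least 3 values gave 2 listed genes in SMART at 10 pg. The calls of Gstp1 in GA and of Gstm2 in SM37 were lost with the dye term and with pairs averaged, that of Gstm5 in unamplified cDNA with pairs averaged, and Gstp1 was called in SM37 with at least 3 values.

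Without single arrays, genes called between the lines were 557 to 758 in IVTIII, 212 to 347 in GA, 85 to 386 in SMART, 473 to 598 in SM37, 81 to 231 in GA at 10 pg, 69 to 97 in SMART at 10 pg and 790 to 1739 in unamplified cDNA, and listed genes 8 to 13, 2 to 6, 2 to 9, 7 to 10, 0 to 5, 0 to 2 and 11 to 19. Counts moved by over 1.5 times without array 2 of IVTIII, 1, 2 or 3 of GA, 2 or 3 of SMART, 4 of SM37, 3 or 4 of GA at 10 pg, 4 of SMART at 10 pg, and 1, 3 or 4 of unamplified cDNA. The dye effect was called in 0 to 16 genes in SMART, 0 to 1 in SMART at 10 pg and 0 in the other targets.

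For amplified minus unamplified, the counts without single arrays were 1446 to 1875 in IVTIII, 532 to 1246 in GA, 663 to 1494 in SMART, 1478 to 2003 in SM37, 947 to 3094 in GA at 10 pg and 302 to 421 in SMART at 10 pg. Arrays scaled to one spread gave 617 genes for 1193 in SMART and 237 for 387 in SMART at 10 pg, and at least 3 values gave 2930 for 1437 in GA at 10 pg and 590 for 387 in SMART at 10 pg. Equal hybridization numbers did not pair the arrays: deviations of same-numbered arrays correlated across genes at r between -0.228 and 0.116, so they share only a number. With the number as a replicate block 1692 genes were called for 1788 in IVTIII, 872 for 1123 in GA, 862 for 1193 in SMART, 1899 for 1991 in SM37, 1215 for 1437 in GA at 10 pg and 324 for 387 in SMART at 10 pg. Among members the block lost the calls of Gstm2 and Gstm5 in GA and added that of Mgst1 in IVTIII, and with at least 3 values of each that of Gstm5 in GA was lost. Each member has 1 probe, so taking probes singly gave no other value. The cause of these moves was not tested. Without intensities, the depth behind a ratio is unknown.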
